A study of Mus musculus with 16 samples.

Results

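The NAD precursors NMN and NR, given before cisplatin, were compared with each other in whole mouse kidney, gene by gene, in 4 libraries against 4. The libraries were chosen by their labels alone (cisplatin with NMN, cisplatin with NR) and make up 8 of the 16 libraries of the series. The other 8, from kidneys given PBS or cisplatin without a precursor, serve here only as reference levels. All mice were of the WT genotype, and in the groups with a precursor the injection of NMN or NR came before that of cisplatin. Kidneys were taken 3 days after cisplatin. With dose, route, number of injections, strain, age and sex not given in the sources used here, it is not known whether NMN and NR were given at matched doses. No label says that the samples of a group came from separate mice, so a p-value below speaks of the spread among these samples only, which may be technical.

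NAD is the electron carrier of fuel oxidation and the substrate of the sirtuins and of the PARP enzymes that answer DNA damage. NR (nicotinamide riboside) is nicotinamide joined to ribose, and NMN (nicotinamide mononucleotide) is the same molecule with a phosphate on the ribose. Cells take up NR through nucleoside transporters, NR kinases add the phosphate to give NMN, and the NMNAT enzymes turn NMN into NAD. NMN outside the cell can lose its phosphate at the ectoenzyme CD73 and enter as NR. Cisplatin, a platinum compound used against cancer, crosslinks DNA and is concentrated by the cells of the proximal tubule, the kidney segment that recovers most of the filtrate and depends on mitochondrial oxidation.

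Expression is given in TPM, a length-corrected unit that brings each library to a common total and keeps no record of its depth, so depth is unknown here. Of 23935 gene symbols, 12960 reached 1 TPM in at least 4 of the 16 libraries and were tested. Mitochondrially encoded mRNAs took 26% ± 2.62 of the listed TPM with NMN and 26.4% ± 3.60 with NR (n = 4 each, SD; two-sided exact permutation test, p = 0.943, adjusted over 4 such measures 0.943). Genes at 1 TPM or more numbered 12134 ± 231 with NMN and 12208 ± 117 with NR (SD, n = 4; exact permutation p = 0.657, adjusted 0.943). Across the tested genes the median correlation between an NMN and an NR library was 0.977, beside 0.976 among the NMN libraries and 0.975 among the NR libraries. These correlations run over genes, which are not independent replicates. The groups overlapped on each of the 7 principal components of the 8 libraries, and the first component held 21.9% of the variance. Kidney markers were abundant in both groups: the proximal tubule transporter gene Slc34a1 averaged 2400 TPM with NMN and 2196 with NR. In bulk tissue, fewer cells of a type and less RNA per cell cannot be told apart.

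No gene passed the test between NMN and NR. With limma, 0 of 12960 genes passed an adjusted p of 0.05 (0%), and no adjusted p was under 0.9999. An unadjusted p under 0.05 was reached by 370 genes (2.85%), of which 133 (1.03%) had the larger mean with NMN and 237 (1.83%) with NR. The share of 2.85% is below the 1 in 20 that chance alone would give on average, but it depends on the model. With only the NMN and NR libraries fitted and the library number added as a block, the count was 665, again with 0 calls. The smaller share in the main fit is therefore no sign that the groups were alike. The 4 NMN values lay above all 4 NR values in 83 genes (0.64%), and the 4 NR values above all 4 NMN values in 129 (0.995%). The median difference over all genes, NMN minus NR, was -0.02 on the log2(TPM + 1) scale, and the NR mean was the larger in 54.4% of genes. On this scale the change of a gene with low values is understated. Leaving out 1 library at a time gave 0 calls in each of the 8 fits.

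The width of the intervals says how large a difference these libraries could hide on the scale of TPM + 1. For genes with low values, a 2-fold bound on this scale allows a larger change in TPM. Npas2, for 1, averaged 0.30 TPM with NMN and 1.00 with NR, yet its difference was -0.60. This limit holds for every interval given here. The 95% interval of the difference stayed within 2-fold in either direction for 12071 genes (93.1%), and within 1.5-fold for 8339 (64.3%). Of the 8949 genes that averaged 5 TPM or more in one of the 2 groups, 8624 (96.4%) had an interval within 2-fold. The median interval reached 0.38 to either side of the estimate. For 46 genes the estimate itself was 2-fold or more, 27 of them among the genes at 5 TPM or more, and for none of these did the test pass. The absence of a call does not show that the precursors acted alike.

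**Figure D1:**
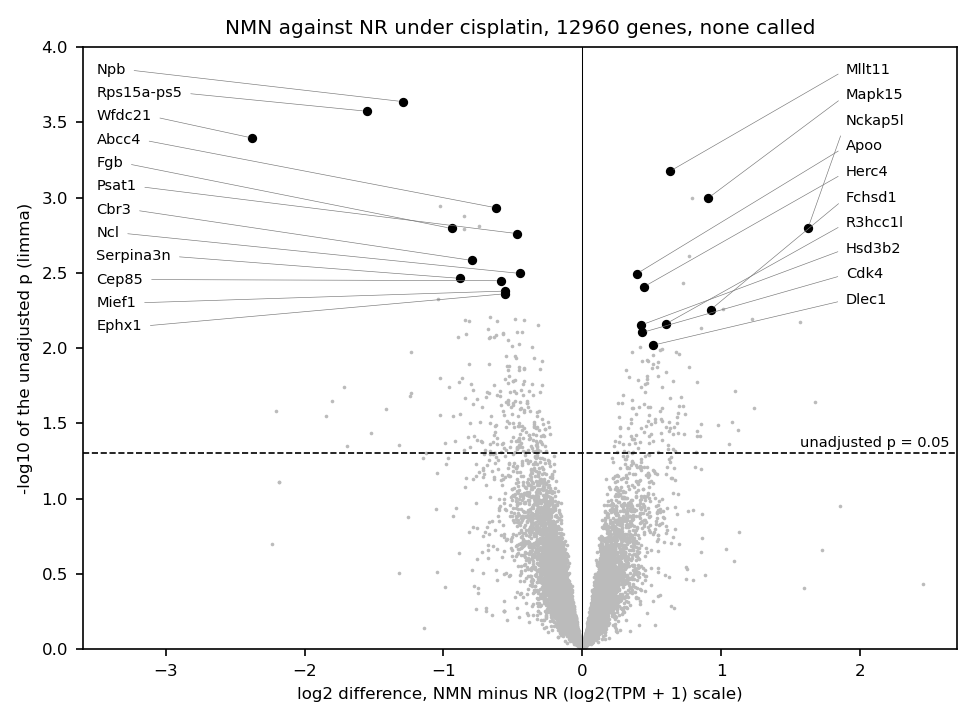
Difference between NMN and NR libraries (x axis, log2(TPM + 1) scale, NMN minus NR) against -log10 of the unadjusted limma p (y axis) for 12960 tested genes, 1 point a gene. Black points are the genes named in the text for the smallest p in each direction and the 3 genes with the smallest p of all. The dashed line marks an unadjusted p of 0.05, which 370 genes passed, and no gene passed after adjustment.

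Among genes with the larger mean in NMN libraries, the smallest p under the naming rule belonged to Mllt11, a gene known from leukaemia fusions (chromosome 3, 95219135 to 95232171, GRCm38). Its NMN libraries measured 17.03, 21.9, 17.1 and 21.3 TPM and its NR libraries 12.6, 12.7, 9.92 and 13.2 TPM. The difference was 0.63 (95% interval 0.31 to 0.95), and every NMN library lay above every NR library. Mapk15, an atypical MAP kinase, measured 17.8, 25.4, 26.1 and 13.3 TPM with NMN and 8.35, 12.98, 10.8 and 9.14 TPM with NR. Again the groups did not overlap, though NMN library 4 came close to the highest NR library. Herc4, a ubiquitin ligase gene, was tight with NMN (38.6, 38.8, 37.9 and 37.0 TPM) and lay at 22.8, 25.8, 29.0 and 34.6 TPM with NR. Apoo, a subunit of the mitochondrial MICOS complex, averaged 92.4 ± 7.90 and 70.2 ± 6.61 TPM (SD, n = 4 each). Nckap5l, which encodes a microtubule-associated protein, had the largest difference of these 10 (1.63, interval 0.71 to 2.54), with NMN libraries at 7.76, 16.9, 1.18 and 3.63 TPM and NR libraries at 0.77, 1.53, 1.08 and 0.87. Here NMN libraries 1, 2 and 4 lay above every NR library and NMN library 3 among the NR values. The other 5 were the cyclin D kinase gene Cdk4 (difference 0.43), the steroid dehydrogenase gene Hsd3b2 (0.43), Fchsd1 (0.93), R3hcc1l (0.60) and Dlec1 (0.51). Mllt11, Nckap5l, Herc4, Fchsd1, R3hcc1l, Hsd3b2, Cdk4 and Dlec1 overlap other genes in the annotation, and the strand setting of the counting is not known, so part of their values may be reads of the partner. The same limit holds for some genes named below, among them Mief1, Naprt, Txnrd1 and Rps15a-ps5.

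Among genes with the larger mean in NR libraries, Abcc4 came first by the naming rule. It encodes MRP4, an efflux pump of the proximal tubule (chromosome 14, 118482692 to 118706219). NMN libraries measured 8.91, 9.17, 8.74 and 8.18 TPM, NR libraries 16.9, 14.98, 11.6 and 12.9 TPM, a difference of -0.62 (interval -0.96 to -0.28). The groups did not overlap. PBS and cisplatin kidneys averaged 6.52 and 22.0 TPM, so both precursor groups lay between these levels. Psat1, an enzyme of serine synthesis, averaged 25.03 ± 1.61 and 35.3 ± 6.01 TPM, and Ncl, the nucleolar protein nucleolin, 56.1 ± 3.64 and 77.4 ± 12.5 TPM. For both genes every NR library lay above every NMN library. Mief1, a factor of mitochondrial fission, likewise did not overlap (7.03 ± 0.47 and 10.8 ± 1.57 TPM), while Cbr3, a carbonyl reductase gene, Cep85, a centrosomal protein gene, and Ephx1, a xenobiotic epoxide hydrolase gene, did (differences -0.79, -0.59 and -0.56).

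3 genes had still smaller p-values but fell outside the naming rule, being low or a pseudogene, and were picked after their values were seen. Wfdc21, which encodes a small secreted protein with a whey acidic protein fold (chromosome 11, 83746940 to 83752642), was listed at 0 in all 4 NMN libraries and measured 3.32, 2.14, 5.98 and 6.66 TPM with NR. It was also at 0 in every PBS library and averaged 6.58 TPM with cisplatin alone, where library 2 was at 0. Of all genes and settings tried, it was the only one called: a fit of the 8 libraries without the reference groups gave an adjusted p of 0.0259, against 0.9999 with all groups. Npb, a neuropeptide gene, was listed at 0, 0, 0.5 and 0 TPM with NMN and measured 1.95, 2.97, 1.28 and 1.03 with NR. The pseudogene Rps15a-ps5, whose reads cannot be told from those of its parent gene with certainty, had 0, 0, 0.7 and 0.77 TPM with NMN and 5.24, 1.76, 4.03 and 1.58 with NR.

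**Figure D2:**
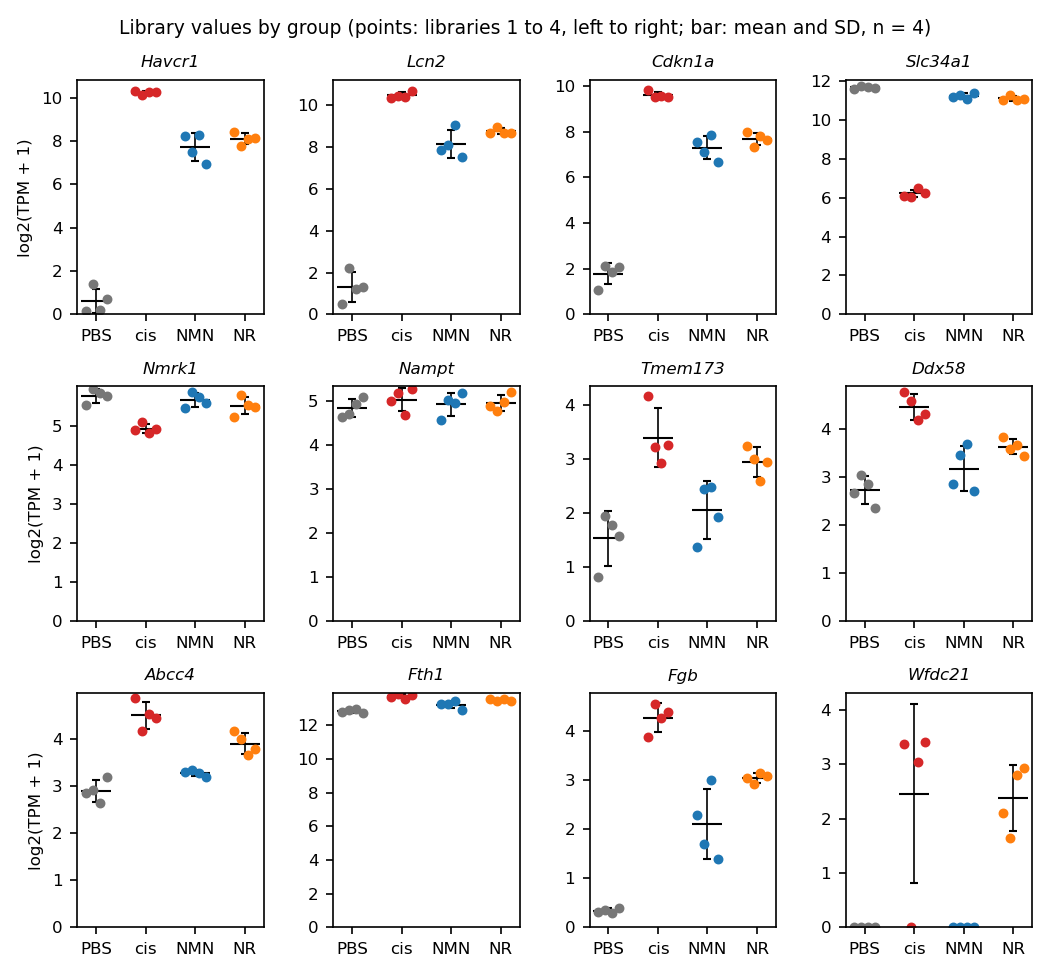
Values of 12 genes in all 16 libraries (y axis, log2(TPM + 1)) for PBS, cisplatin (cis), cisplatin with NMN and cisplatin with NR. Points are libraries 1 to 4 from left to right, bars the mean and SD (n = 4). NMN and NR points overlap for Havcr1, Lcn2, Cdkn1a, Slc34a1, Nmrk1, Nampt, Ddx58 and Fgb, and not for Tmem173, Abcc4, Fth1 and Wfdc21.

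Markers of tubular injury lay far below their cisplatin level with either precursor, and their NMN and NR values overlapped. Havcr1, which encodes the phosphatidylserine receptor KIM-1, measured 301, 181, 308 and 122 TPM with NMN and 337, 217, 272 and 284 with NR, beside 1204 ± 60.1 with cisplatin alone. The difference of -0.37 had an interval of -0.95 to 0.22, which includes 0 and stays within 2-fold. Lcn2, a secreted siderophore carrier, measured 228, 275, 531 and 186 TPM with NMN and 405, 496, 411 and 411 with NR (-0.61, interval -1.26 to 0.04). In both genes NMN library 4 was the lowest of the 8 and NMN library 3 passed the NR mean. Cdkn1a, the p53-driven cell cycle inhibitor p21, measured 188, 139, 231 and 101 TPM with NMN and 250, 160, 225 and 200 with NR (-0.39, interval -0.89 to 0.12). It followed the same pattern, with NMN library 4 lowest.

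Of 28 injury markers, 26 had the larger mean with NR, with a median difference of -0.22 beside -0.02 for all genes, and 3 reached an unadjusted p under 0.05. These were the matrix phosphoprotein gene Spp1 (2551 ± 798 and 3663 ± 734 TPM), the cornified envelope gene Sprr2f (18.4 ± 10.1 and 31.3 ± 5.38) and the intermediate filament gene Vim (33.4 ± 5.14 and 45.2 ± 6.14; SD, n = 4). Of 28 p53 targets, 26 had the larger mean with NR (median -0.18), and 4 reached an unadjusted p under 0.05, among them the death receptor gene Fas (-0.44), Psrc1 (-0.57) and Ei24 (-0.24). Of all genes, 54.4% had the larger NR mean, and 1.83% had it with an unadjusted p under 0.05. Proximal tubule genes lay the other way: the NMN mean was the larger in 30 of 33 (median 0.12), and none reached an unadjusted p under 0.05. Slc34a1 measured 2324, 2506, 2108 and 2663 TPM with NMN and 2088, 2459, 2072 and 2166 with NR (0.13, interval -0.10 to 0.35), and the methyltransferase gene Inmt 973 ± 94.9 and 824 ± 104 TPM. Kap, an androgen-responsive proximal tubule gene, averaged 37481 ± 3386 and 31695 ± 3370 TPM. These counts rested in part on NMN library 4. Without it the injury markers with the larger NR mean numbered 18 of 28 (median -0.07, with 0 at an unadjusted p under 0.05), the p53 targets 21 of 28 (median -0.10, 0), and the proximal tubule genes with the larger NMN mean 19 of 33 (median 0.03).

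The same lean held over the genes that cisplatin itself moved. Cisplatin against PBS shares no library with NMN against NR. It called 7693 genes (59.4%), of which 2381 were at least 2-fold higher (18.4%) and 1178 at least 2-fold lower (9.09%) with cisplatin. The NR mean exceeded the NMN mean in 72.3% of the genes that cisplatin raised (median difference -0.10), and the NMN mean exceeded the NR mean in 73.1% of those it lowered (median 0.09). Among the 9401 other genes the NR mean was the larger in 53.2%. So in 72.6% of the 3559 genes the NR mean lay on the cisplatin side of the NMN mean, but this share was 57.2% without NMN library 4. The differences were small: their median size was 7.73% of the cisplatin change of the same gene, and for 3268 of the 3559 genes (91.8%) the interval stayed within 2-fold.

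Each library was also placed on the line from the PBS mean (0%) to the cisplatin mean (100%) over all tested genes. NMN libraries lay at 32.5%, 30.7%, 38.9% and 20.4%, a mean of 30.6% ± 7.67, and NR libraries at 37.9%, 32.6%, 37.7% and 34.3%, a mean of 35.7% ± 2.60 (SD, n = 4 each). The groups overlapped: NMN library 3 had the highest place of the 8 and NMN library 4 the lowest. The difference of -5.02 percentage points became -1.61 without NMN library 4, and the spread among NMN libraries was wider than the distance between the groups.

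**Figure D3:**
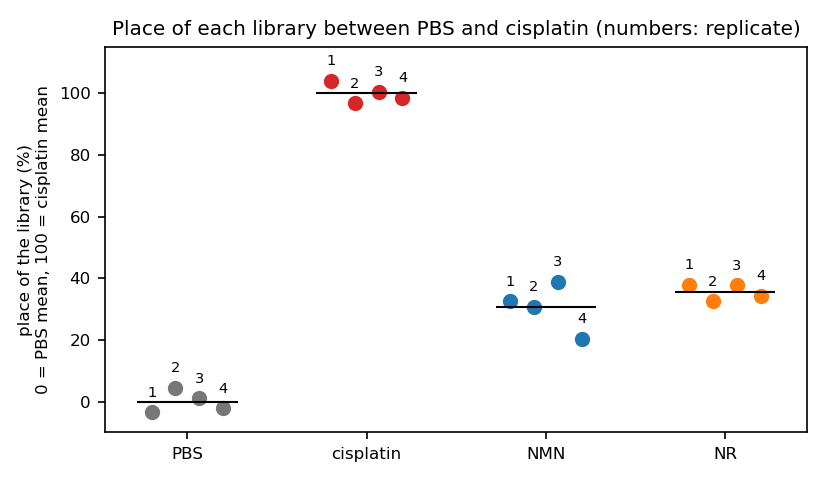
Place of each library (y axis, percent) between the mean of the PBS libraries (0) and that of the cisplatin libraries (100), over all tested genes. Points are libraries with their replicate number and black lines the group means. The 4 NMN libraries sit between 20.4% and 38.9% and the 4 NR libraries between 32.6% and 37.9%.

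Genes that handle the precursors and NAD itself overlapped between NMN and NR libraries. Nmrk1, the NR kinase whose product is NMN, measured 42.6, 57.3, 52.0 and 46.9 TPM with NMN and 36.6, 53.8, 45.3 and 43.8 TPM with NR (0.15, interval -0.13 to 0.43). The groups overlapped along most of their range. Nampt, the rate-limiting enzyme of nicotinamide salvage, measured 22.7, 31.6, 30.0 and 35.5 TPM with NMN and 28.7, 26.3, 30.9 and 36.1 TPM with NR (-0.03, interval -0.37 to 0.30). Nmnat1, the NMNAT enzyme of the nucleus, averaged 10.7 ± 2.26 and 10.1 ± 2.497 TPM (0.08, interval -0.38 to 0.54), and Naprt, which salvages nicotinic acid, 27.6 ± 2.22 and 33.7 ± 7.76 TPM. Of 10 tested salvage and adenylyl transfer genes, 4 had the larger mean with NMN and 6 with NR (median -0.03), none reached an unadjusted p under 0.05, and all 10 intervals stayed within 2-fold.

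On the side of uptake, Nt5e, which encodes CD73, measured 20.9, 18.6, 26.1 and 20.2 TPM with NMN and 19.3, 18.5, 20.2 and 21.1 TPM with NR (0.10, interval -0.18 to 0.39). Slc29a1, an equilibrative nucleoside transporter gene, averaged 30.9 ± 11.7 and 25.8 ± 4.41 TPM, with NMN library 2 at 47.6. All 10 tested genes of uptake and extracellular conversion had intervals within 2-fold (median difference 0.01). Slc12a8, described elsewhere as a carrier of NMN, did not reach 1 TPM in 4 libraries and was not tested. Genes of synthesis from tryptophan had the larger NMN mean in 7 of 7 tested (median 0.11). Qprt, which forms the nicotinic acid nucleotide from quinolinate, averaged 43.5 ± 1.35 and 37.1 ± 5.15 TPM (0.23, interval -0.10 to 0.56), and Kmo, an upstream hydroxylase gene, 39.2 ± 4.92 and 34.0 ± 2.52. None of the 7 reached an unadjusted p under 0.05, and without NMN library 4 the NMN mean was the larger in 5 of 7 (median 0.03). Among 19 genes that consume NAD or dispose of nicotinamide the NMN mean was the larger in 12 (median 0.02). None reached an unadjusted p under 0.05, but only 16 of the 19 intervals stayed within 2-fold. Parp2, a DNA damage PARP gene, averaged 15.3 ± 7.40 and 8.57 ± 1.54 TPM (0.69, interval -0.13 to 1.51), with NMN library 4 at 26.3. Nnmt, which methylates nicotinamide, was low in both groups (0.43, 2.22, 0.89 and 0.29 TPM with NMN, 0.86, 3.17, 2.30 and 1.32 with NR). Its difference was -0.60 (interval -1.37 to 0.17).

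Genes of mitochondrial oxidation showed small differences. Of 41 nuclear genes of oxidative phosphorylation, 37 had the larger mean with NMN (median 0.08), among them the succinate dehydrogenase subunit gene Sdhc (258 ± 12.5 and 229 ± 15.5 TPM) and the cytochrome c oxidase subunit gene Cox6c (2156 ± 246 and 1843 ± 410 TPM). None reached an unadjusted p under 0.05, all 41 intervals stayed within 2-fold, and without NR library 1 only 20 of the 41 had the larger NMN mean (median -0.002). The citric acid cycle list had 15 of 17 (median 0.07), including Dld (86.9 ± 12.01 and 75.5 ± 10.4 TPM) and Mdh1 (528 ± 58.9 and 471 ± 43.6 TPM). Of the 13 mitochondrially encoded mRNAs, 5 had the larger mean with NMN (median -0.02), with COX2 at 6446 ± 1136 and 7494 ± 206 TPM and ATP6 at 27152 ± 4722 and 24388 ± 2686. Fatty acid oxidation and PPARA target genes were near even, 15 of 36 with the larger NMN mean (median -0.03). 3 of the 36 reached an unadjusted p under 0.05, all with the larger NR mean, beside 1.83% of all genes. Among them Pdk4, which turns off pyruvate dehydrogenase, averaged 16.2 ± 3.01 and 22.0 ± 3.90 TPM, and Cyp4a14, a fatty acid hydroxylase gene, 38.8 ± 8.05 and 62.3 ± 21.6. Cyp4a14 averaged 18.1 TPM with PBS and 18.4 with cisplatin alone, so both precursor means lay above both references.

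Sensors of foreign nucleic acid set off interferon and inflammatory genes. The adaptor gene Tmem173 (STING, for cytosolic DNA) measured 1.57, 4.47, 4.62 and 2.79 TPM with NMN and 8.51, 6.99, 5.03 and 6.74 TPM with NR (-0.89, interval -1.52 to -0.26). The groups did not overlap, with NR library 3 just above NMN library 3. Ddx58, the RNA sensor RIG-I, measured 6.22, 9.92, 11.8 and 5.54 TPM with NMN and 13.3, 11.03, 11.7 and 9.86 TPM with NR (-0.46, interval -0.90 to -0.02), and here the groups overlapped. The related sensor gene Ifih1 averaged 3.09 ± 0.68 and 3.18 ± 0.88 TPM, and Mavs, the adaptor of both RNA sensors, 24.7 ± 2.59 and 24.6 ± 2.14. Over the 21 tested sensing genes 13 had the larger mean with NR (median -0.02), beside 54.4% of all genes. Tmem173 and Ddx58 were the 2 with an unadjusted p under 0.05, reached with the larger NR mean by 1.83% of all genes.

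Downstream, interferon-stimulated genes were near even and cytokine and chemokine genes had the larger NR mean in most. Of 41 interferon-stimulated genes, 24 had the larger mean with NR (median -0.01), beside 54.4% of all genes. An unadjusted p under 0.05 was reached by 1, with the larger NMN mean, beside 1.03% of all genes in that direction. It was Xaf1, an apoptosis-linked gene, at 8.91 ± 2.13 with NMN and 5.64 ± 2.47 TPM with NR. Cmpk2 averaged 2.94 ± 0.59 and 4.24 ± 2.104 TPM, NR library 4 reaching 7.38. Irf7, the interferon-induced regulator, measured 25.97, 19.1, 23.0 and 12.3 TPM with NMN and 22.6, 16.2, 18.6 and 22.9 TPM with NR (-0.03, interval -0.45 to 0.39). Cytokine and chemokine genes had the larger mean with NR in 14 of 20 (median -0.11), none at an unadjusted p under 0.05, beside 54.4% of all genes with the larger NR mean. With 1 library left out this median ran from -0.19 to 0.0098. The neutrophil attractant Cxcl1 averaged 23.0 ± 8.82 and 25.4 ± 7.74 TPM, the monocyte attractant Ccl2 2.94 ± 1.15 and 2.91 ± 0.16, Ccl20 2.01 ± 0.37 and 2.72 ± 0.55, and Il18 3.34 ± 0.66 and 2.47 ± 0.37.

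Complement and acute phase genes mostly had the larger NR mean, and none was called. Of 20 tested complement and acute phase genes, 8 reached an unadjusted p under 0.05, all with the larger NR mean, beside 1.83% of all genes. The NR mean was the larger in 16 of the 20 (median -0.23), beside 54.4% of all genes. The number at an unadjusted p under 0.05, 8 in the main fit, was 3 without NMN library 1 and 2 without NMN library 4. It was 4, 4 and 2 without NR library 1, 3 and 4. It was 4 with only the NMN and NR libraries fitted, 4 with array weights, and 2 without NR libraries 3 and 4. Fibrinogen, the clotting protein, is built from 3 chains encoded side by side on chromosome 3 by Fgg (83007724 to 83015049), Fga (83026076 to 83033627) and Fgb (83040141 to 83049863). All 3 genes were highest in NMN library 3 and lowest in NMN library 4 within the NMN group, so their promoters are shown, from the RefSeq table of GRCm38.p6, each 300 bases long and written 5′ to 3′ on the gene's strand, with 250 bases before the RefSeq start and 50 from it on. For Fga this start lies inside the gene span given here, which comes from another annotation and begins further upstream. Capitals mark matches to CTGGGA, the core of the response element of the cytokine IL-6, and to TTNNGNAA, a short form of the C/EBP recognition sequence, on either strand.
Fgg, chr3:83007474-83007773, plus strand: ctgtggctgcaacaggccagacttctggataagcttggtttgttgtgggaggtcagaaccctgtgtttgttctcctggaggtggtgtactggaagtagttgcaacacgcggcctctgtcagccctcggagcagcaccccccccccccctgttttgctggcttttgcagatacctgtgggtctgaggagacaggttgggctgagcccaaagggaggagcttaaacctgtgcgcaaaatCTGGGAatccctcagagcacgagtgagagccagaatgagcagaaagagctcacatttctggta
Fga, chr3:83025903-83026202, plus strand: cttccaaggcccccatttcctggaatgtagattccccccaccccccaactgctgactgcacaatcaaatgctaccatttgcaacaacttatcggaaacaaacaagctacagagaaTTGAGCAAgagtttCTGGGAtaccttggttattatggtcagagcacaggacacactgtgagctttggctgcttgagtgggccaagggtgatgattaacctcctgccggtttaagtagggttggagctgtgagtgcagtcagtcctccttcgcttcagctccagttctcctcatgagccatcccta
Fgb, chr3:83049814-83050113, minus strand: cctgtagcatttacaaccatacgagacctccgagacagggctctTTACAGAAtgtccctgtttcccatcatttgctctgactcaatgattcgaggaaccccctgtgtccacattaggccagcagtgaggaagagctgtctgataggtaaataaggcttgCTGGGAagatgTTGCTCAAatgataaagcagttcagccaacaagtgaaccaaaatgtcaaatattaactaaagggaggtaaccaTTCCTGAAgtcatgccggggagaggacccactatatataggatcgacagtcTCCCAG

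CTGGGA had 1 match before Fgg, 1 before Fga and 2 in the Fgb window, the second of them on the other strand after the start. TTNNGNAA had 0, 1 and 3 matches in the same order, and no match overlapped another. Both are common: 31.8% of 32851 promoters of this length hold CTGGGA and 40.7% hold TTNNGNAA, so a match is a description and not a site. In the values, Fgb measured 3.92, 2.27, 7.07 and 1.64 TPM with NMN and 7.22, 6.53, 7.82 and 7.53 TPM with NR (-0.94, interval -1.47 to -0.41). Fga measured 48.9, 40.3, 156 and 29.5 TPM with NMN and 112, 99.9, 104 and 108 TPM with NR (-0.93). Fgg, chosen with its neighbours after the values were seen, measured 51.2, 62.2, 191 and 43.9 TPM with NMN and 127, 123, 124 and 124 TPM with NR (-0.78). In all 3 genes NR libraries were close to one another, NMN libraries 1, 2 and 4 lay below every NR library, and NMN library 3 stood within the NR range or above it. Serpina3n, an acute phase protease inhibitor gene, had the same high library (2.38, 2.19, 5.73 and 1.5 TPM with NMN, 4.74, 4.18, 8.15 and 6.62 with NR). The haptoglobin gene Hp did not: it measured 2.14, 6.08, 1.59 and 0.68 TPM with NMN and 1.40, 5.62, 64.3 and 41.0 with NR, high only in NR libraries 3 and 4, and it is also expressed in fat.

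Fat tissue genes gave the largest median difference of any list, which rested on NR libraries 3 and 4. Adipoq, the fat cell hormone adiponectin, was listed at 0, 2.78, 0 and 0 TPM with NMN and at 0, 3.98, 9.77 and 9.53 TPM with NR. Plin1, the coat protein of fat droplets, measured 0, 1.00, 0.45 and 0 TPM with NMN and 0.07, 1.42, 5.97 and 4.02 with NR. Retn, the resistin gene, averaged 0.78 ± 0.62 and 8.78 ± 7.87 TPM, and Cidec, a fat droplet fusion gene, 4.13 ± 2.66 and 14.2 ± 12.2. In each of these 4 genes NR libraries 3 and 4 lay above the other 6 libraries. Of 14 tested fat genes, 13 had the larger mean with NR and 5 of them reached an unadjusted p under 0.05 (median -0.94), beside 54.4% and 1.83% of all genes. Without NR libraries 3 and 4 the median was -0.07 and the count 0, and without NR library 3 or NR library 4 alone the medians were -0.61 and -0.72, each with a count of 0. Without NMN library 1 or NMN library 4 the count was also 0. In cisplatin kidneys without a precursor Adipoq averaged 7.67 ± 3.48 TPM and with PBS 1.30 ± 1.51, and the summed level of all 15 fat genes ran from 118 to 257 TPM with PBS and from 386 to 636 with cisplatin. The sum was 122 to 238 TPM with NMN and 138 to 571 with NR, where libraries 1 and 2 had 138 and 231 TPM and libraries 3 and 4 had 571 and 412. Whether the amount of fat carried with a kidney had a part in this was not tested.

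**Figure D4:**
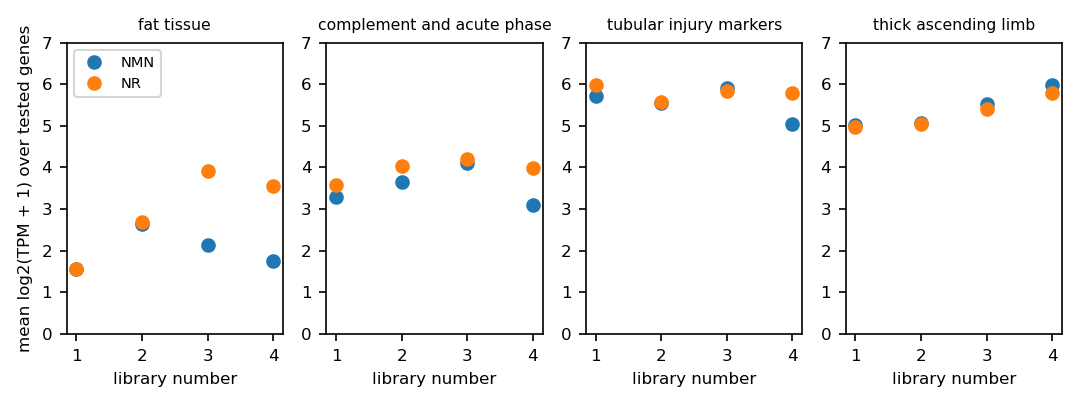
Mean log2(TPM + 1) over the tested genes of 4 lists (y axis) in NMN and NR libraries 1 to 4 (x axis), 1 point a library. Fat tissue genes are high in NR libraries 3 and 4 (3.92 and 3.56, against 1.55 to 2.69 in the other 6), injury markers are lowest in NMN library 4 (5.05), and thick ascending limb genes lie at 5.02, 5.07, 5.53 and 5.98 with NMN and 4.98, 5.04, 5.41 and 5.79 with NR.

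Targets of NRF2, the regulator of the antioxidant response, had the larger mean with NR in 18 of 22 (median -0.14), beside 54.4% of all genes. Beside Abcc4 and Ephx1, the ferritin heavy chain gene Fth1 measured 9874, 9771, 11132 and 7859 TPM with NMN and 12151, 11191, 12220 and 11294 TPM with NR (-0.29, interval -0.51 to -0.07). Every NR library lay above every NMN library. Txnrd1, a thioredoxin reductase gene, averaged 80.0 ± 14.3 and 102 ± 12.7 TPM. All 22 intervals stayed within 2-fold. An unadjusted p under 0.05 was reached by 4 of the 22, all with the larger NR mean, beside 1.83% of all genes. Without NMN library 4 the median was -0.14, with 2 genes in place of 4. The integrated stress response list was even (14 of 27 with the larger NMN mean, median 0.03), with the transcription factor gene Cebpb at 62.9 ± 12.2 and 80.1 ± 4.00 TPM beside Psat1. Of 28 cytosolic ribosomal protein genes, 26 had the larger mean with NR, though by a median of only -0.07. Rplp0 averaged 935 ± 102 and 1060 ± 66.8 TPM and Rpl5 203 ± 17.2 and 229 ± 24.4. Without NMN library 4 the count was 12 of 28, and without NR library 3 it was 13. Ribosome biogenesis genes were near even (11 of 20, median -0.03), with Nop58 at 15.5 ± 3.23 and 20.1 ± 4.75 TPM beside Ncl.

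Among cell death genes, 14 of 22 had the larger mean with NR (median -0.07), beside 54.4% of all genes. With 1 library left out this median ran from -0.18 to -0.015. An unadjusted p under 0.05 was reached by 2 of the 22, Bcl2l1 and Casp4, both with the larger NR mean, beside 1.83% of all genes. The survival factor gene Bcl2l1 averaged 81.5 ± 12.01 and 104 ± 17.6 TPM and the inflammatory caspase gene Casp4 0.98 ± 0.59 and 2.07 ± 0.55. In the list of cisplatin transport and metabolism the median was 0.06. An unadjusted p under 0.05 with the larger NR mean was reached by 2 of 12, beside 1.83% of all genes. They were Abcc4 and the copper pump gene Atp7a (1.38 ± 0.44 and 2.73 ± 0.98 TPM). In the circadian list the clock repressor gene Per2 measured 6.82, 57.6, 13.2 and 24.4 TPM with NMN and 6.54, 11.8, 10.3 and 8.93 TPM with NR, set apart by NMN library 2. Its activator gene Npas2 averaged 0.30 ± 0.24 and 1.00 ± 0.58 TPM, and the list median was 0.02. The time of day at which kidneys were taken is not given.

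No marker gene of the other cell types of the kidney was called. The thick ascending limb list had the larger NMN mean in 8 of 10 (median 0.17), none at an unadjusted p under 0.05, and without NMN library 4 in 5 of 10 (median -0.01). The claudin genes Cldn10 and Cldn16 averaged 102 ± 16.5 against 87.8 ± 7.08 TPM and 7.03 ± 4.31 against 8.68 ± 2.22 TPM. Umod, the segment's secreted glycoprotein, was picked after its values were seen: it measured 290, 325, 470 and 803 TPM with NMN and 233, 293, 412 and 653 with NR (0.24, interval -0.73 to 1.21). The groups overlapped, and in all 4 same-numbered pairs of libraries the NMN library was the higher, although no label ties the numbers together. Endothelial genes had the larger NR mean in 10 of 14 (median -0.17), with Esam at 9.07 ± 1.88 and 12.4 ± 2.17 TPM and the VEGF receptor gene Flt1 at 4.00 ± 1.29 and 5.05 ± 0.93. The median was -0.04 without NMN library 1. Collagen and matrix genes had it in 22 of 28 (median -0.17, and -0.02 without NMN library 1), with Col18a1 at 80.1 ± 27.3 and 109 ± 5.997 TPM and Col4a1 at 44.0 ± 7.62 and 52.7 ± 9.38. Macrophage genes had it in 10 of 15 (median -0.09, and -0.18 to 0.047 with 1 library left out). Of all genes, 54.4% had the larger NR mean. The endotoxin co-receptor gene Cd14 measured 12.6, 10.7, 18.1 and 6.99 TPM with NMN and 25.6, 17.4, 19.0 and 15.1 TPM with NR, whereas the mannose receptor gene Mrc1 stayed low (0.61 ± 0.78 and 0.79 ± 0.28).

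Summed levels of the markers of blood and of neighbouring organs overlapped between NMN and NR libraries. The 9 red blood cell genes summed to 1390, 2909, 2002 and 2113 TPM with NMN and 1297, 2628, 2138 and 1874 with NR, lowest in library 1 and highest in library 2 of either group. Lymphocyte and neutrophil markers were near 0: sums of the T and NK cell list were 3.34 to 8.48 TPM with NMN and 1.55 to 4.68 with NR, and of the neutrophil list 2.41 to 12.4 and 7.87 to 11.7, with the granule genes Mpo and Elane at 0 in all 8 libraries. The 9 adrenal genes summed to at most 1.26 TPM, and the steroid synthesis genes Cyp11a1, Cyp11b1 and Cyp11b2 were at 0. Among cytokines, Il6 (0.11 and 0.47 TPM on average) and Tnf (0.37 and 0.36) were too low to be tested.

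Across the 46 lists with at least 2 tested genes, 44 medians lay within 0.25 of 0, and in no list did the 4 NMN list means stand clear of the 4 NR list means. Of 15 lists whose median was more than 2-fold higher with cisplatin than with PBS, 13 had an NMN minus NR median below that of all genes, and of 11 lists more than 2-fold lower with cisplatin, 9 had a median above it. The lists share genes and libraries, so these counts describe the 8 libraries and carry no test. The same lean over single genes rested in part on NMN library 4. Without it, the share of cisplatin genes with the NR mean on the cisplatin side was 57.2%, against 72.6% with all libraries. Of the 791 tested genes in any list, 40 (5.06%) reached an unadjusted p under 0.05, beside 2.85% of all genes. The lists were chosen with earlier results of these data known, so the larger share is a description and no independent support.

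**Figure D5:**
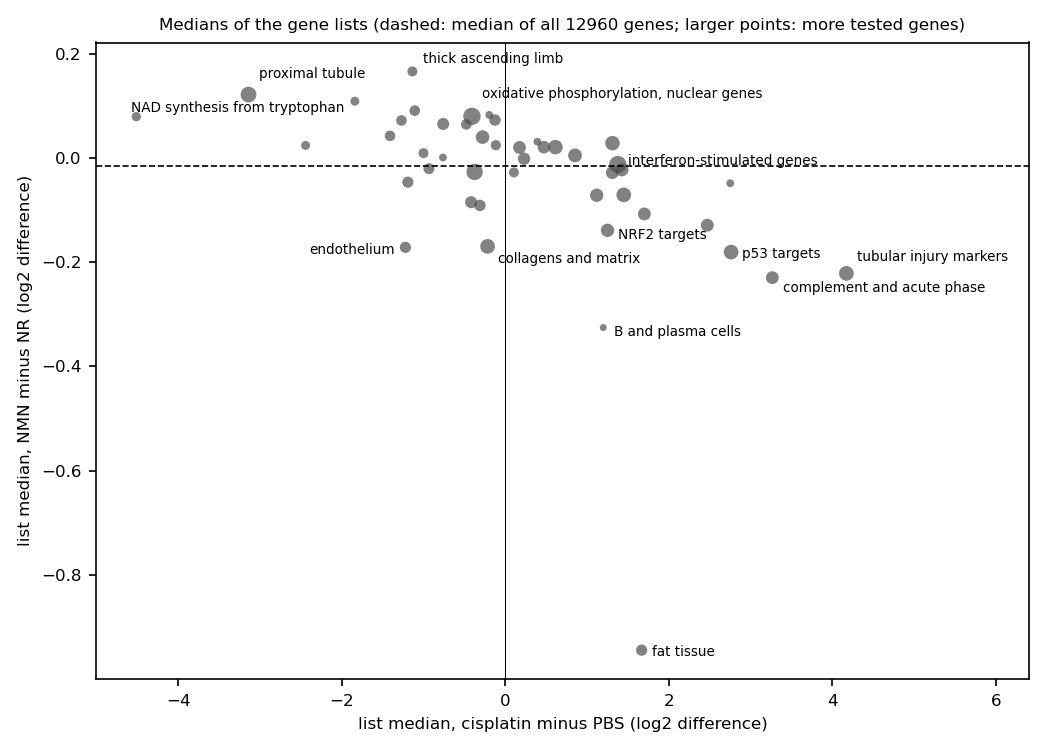
Median difference of each gene list between cisplatin and PBS (x axis, log2) and between NMN and NR libraries (y axis, NMN minus NR, log2), 1 point a list, larger for lists with more tested genes. The dashed line is the median of all genes (-0.02). All lists but fat tissue (-0.94) and B and plasma cells (2 tested genes) lie within 0.25 of 0.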

How the data were processed

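RNA of whole mouse kidney was sequenced in 16 samples, grouped by their titles. The authors deposited 1 table of TPM values with 2 decimals. Per the submitters' processing notes, DESeq2 1.10.1, HTSeq 0.6.1, STAR 2.4.1d and Trim Galore were used, with GRCm38 and mm10. Their roles and order, the annotation, gene lengths and the strand used in counting were not given in the sources used here. As a relative unit TPM shifts with abundant transcripts, and it keeps no depth, so no counting interval is given and no count model was run.

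Symbols were read from the last brackets of each name, and 94 entries sharing a symbol were summed. Symbols with 1 TPM or more in 4 of 16 libraries were tested as log2(TPM + 1). One model in limma 3.58.1 (with statmod 1.5.0 and R 4.3.3) over all 4 groups, with trend and robust moderation, gave NMN minus NR with 95% intervals and Benjamini-Hochberg adjusted p over 12960 genes, and was tested on simulated data. For single values of a library, exact permutation tests were run over the 70 splits (smallest two-sided p 0.0286). Alternatives were other scalings, pseudocount, filters, moderation, library sets, weights, a replicate block and each library left out. Checks of the shares per library, of the place between PBS and cisplatin and of the cisplatin comparison under these settings were added after seeing the data. Positions are from GENCODE vM21 (GRCm38), in which 97.3% of symbols matched 1 gene.

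The comparison and the 48 gene lists were chosen with earlier results of these data known. Named were, since under 5 genes were called, the 10 genes with the smallest p in each direction at 5 TPM or more in the higher group (leaving out pseudogenes, predicted genes and those of the mitochondrial genome), 2 to 4 genes with the smallest p of each list described, and 19 genes always. 1 gene that the rule names is not reported here. Figures used matplotlib in Python.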

Additional observations from a re-analysis of the deposited data

Results flagged for a closer look

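In 20 of 282 groups of 4 values that were checked, 1 library stood far from the other 3 by Dixon's test at the 95% level. Chance alone sets apart about 1 group in 20. Among NMN libraries, library 3 was high for Fga (155.65 TPM, others 29.5 to 48.9), Fgg (190.9, others 43.9 to 62.2), Nop58 (20.32, others 13.4 to 14.4), Npb (0.5, others 0) and the list mean of NRF2 targets (7.21 on the log2(TPM + 1) scale, others 6.90 to 6.93). NMN library 2 was high for Adipoq (2.78 TPM, others 0), Mrc1 (1.77, others 0.15 to 0.29) and the intercalated cell list (4.88, others 4.49 to 4.55). NMN library 4 was high for Parp2 (26.34 TPM, others 10.5 to 12.6) and the proximal tubule list (8.30, others 7.95 to 7.99), and NMN library 1 was low for the list of NAD consumption and nicotinamide disposal (3.34, others 3.51 to 3.53).

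Among NR libraries, library 2 was high for Lcn2 (495.87 TPM, others 405 to 411) and Esam (15.64, others 11.1 to 11.6), and low for Txnrd1 (83.18, others 107 to 110) and the p53 target list (4.34, others 4.63 to 4.67). NR library 4 was high for Cmpk2 (7.38 TPM, others 2.90 to 3.46), the proximal tubule list (8.10, others 7.87 to 7.89) and the sex-linked gene list (3.45, others 3.28 to 3.29). NR library 1 was low for Apoo (60.3 TPM, others 73.1 to 73.9), and NR library 3 was low for Ccl2 (2.66, others 2.96 to 3.01). Of the flagged items, only the proximal tubule list was high in library 4 of both groups. Though not flagged, the thick ascending limb list was also highest in library 4 of both (5.98 with NMN, 5.79 with NR). So was the distal convoluted tubule list (4.81 with NMN, 4.66 with NR).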

How the results depend on the processing

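The count of genes called between NMN and NR was 0 under 19 of the 20 alternatives, and 1 (Wfdc21, which was also past 2-fold) with only the NMN and NR libraries. The count at an unadjusted p under 0.05 was 278 to 507 with 1 library left out, and 665 with a replicate block and only the NMN and NR libraries. With a replicate block over all groups it was 421, with 0 calls in both fits. Same-numbered NMN and NR libraries deviated together by correlations of 0.07, 0.23, 0.16 and 0.20. Each NMN library correlated best with the NR library of its own number, a hint from the data only. The summed thick ascending limb genes were highest in library 4 and next highest in library 3 of PBS, NMN and NR. They measured 888, 843, 1317 and 1844 TPM with PBS, 696, 723, 946 and 1537 with NMN, and 578, 665, 869 and 1257 with NR. With cisplatin alone the order was different (384, 886, 334 and 749 TPM). The summed red blood cell genes were lowest in library 1 and highest in library 2 of PBS (1902, 3848, 3534 and 2720 TPM), as with NMN and NR. With cisplatin alone this order too was different (43.15, 35.12, 53.66 and 37.77 TPM). Since the first correlation is under 0.1 and no label ties the numbers to an animal or day, the numbers were not taken as pairs. Whether same-numbered libraries share a batch was not tested, and the unpaired p-values take no account of it. In 72.6% of the 3559 cisplatin genes the NR mean lay on the cisplatin side of the NMN mean. This share was 70.2% with median-of-ratios scaling, 70.8% with quantile normalization and 74.8% at a minimum of 5 TPM. It was 68.6% with array weights, 66.8% without NR libraries 3 and 4, and 57.2% to 77.8% with 1 library left out. The place of NMN minus NR ran from -7.78 to -1.61 points with 1 library left out. Differences between NMN and NR in the library shares changed sign with 1 library left out: mitochondrially encoded mRNAs -1.78 to 0.95 points, ribosomal protein genes -0.74 to 0.16 points, genes at 1 TPM or more -152 to 17.3, and listed TPM -5322 to 9065. Of 90 named genes 81 kept the sign of their difference in all alternatives tried. The other 9 changed sign in at least 1. With quantile normalization Ccl2 became 0.016 and Ifih1 0.017, without mitochondrially encoded genes Mavs became -0.0063, and with array weights Ifih1 became 0.012 and Irf7 0.0044. Without NR libraries 3 and 4, Cxcl1 became 0.15, Ifih1 0.19, Irf7 0.021, Nampt 0.10 and Nmnat1 -0.061. With 1 library left out, Ccl2 ran from -0.19 to 0.088, Cxcl1 from -0.38 to 0.071, Ifih1 from -0.14 to 0.10, Irf7 from -0.17 to 0.17, Mavs from -0.049 to 0.070, Nampt from -0.12 to 0.088, Nmnat1 from -0.086 to 0.21, Slc29a1 from -0.027 to 0.35 and Umod from -0.056 to 0.51. The cause of these shifts was not tested. The main limits are the unknown depth and doses and the 4 libraries a group. Several differences also rested on NMN library 4, the lowest for injury markers though not flagged for them, or on NR libraries 3 and 4, high for fat genes.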
